A study of Homo sapiens with 2 samples.

Results

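The genes described here encode membrane-acting restriction factors, cellular proteins that block enveloped viruses at membranes: IFITM1, IFITM2, IFITM3, IFITM10, BST2 (tetherin), CH25H, SERINC3 and SERINC5. They were chosen by name, and all 8 were matched by Ensembl identifier among the 63677 genes of the count table. RNA was sequenced from 1 lncPSCA library and 1 control library of HGC-27, a cell line derived from a human gastric carcinoma. The lncPSCA cells had been transfected with the plasmid pcDNA3.1 carrying the long non-coding RNA lncPSCA, and the control cells with pcDNA3.1 alone. The transfection reagent INTERFERin was used for both, and both were collected 48 hours later. The comparison asks how the level of these transcripts differs when lncPSCA is overexpressed.

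IFITM proteins are small membrane proteins that hinder the fusion of viral and cellular membranes. IFITM1 acts mainly at the cell surface, while IFITM2 and IFITM3 act mainly in endosomes, and IFITM10 is a distant relative whose antiviral role is not established. BST2 anchors budding virions to the surface of the cell that made them. CH25H makes 25-hydroxycholesterol, an oxysterol that alters membrane cholesterol, and SERINC3 and SERINC5 are multipass proteins that enter HIV particles and lower their infectivity. IFITM1, IFITM2, IFITM3 and BST2 are classical interferon-stimulated genes, whose promoters carry binding sites for an interferon-activated transcription factor complex.

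The lncPSCA library held 23016646 counts and the control library 21552098. The overexpressed RNA has no row of its own name. The row of the PSCA gene had 28699 reads in the lncPSCA library and 22 in the control library. Whether these reads came from the overexpressed RNA or from the PSCA gene cannot be told from the counts. There was no replicate and hence no test of the difference, and every interval below is a 95% counting interval that leaves out any spread between cultures. Of 6 epithelial markers, KRT18 and KRT19 had no reads in the lncPSCA library and 4 and 1 in the control library, and EPCAM had 7 in each. The summed level of the epithelial markers was 5.57 CPM (counts scaled to library size) in lncPSCA and 6.78 CPM in control, against 3274 and 2958 CPM for 6 fibroblast markers, all of which had reads in both libraries. The labelled line is carcinoma, so the epithelial markers go against its label in both libraries. Endothelial markers summed to 0.553 and 0.332 CPM, with PECAM1, CDH5 and KDR at 0 in both libraries. Leukocyte markers summed to 7.40 CPM in lncPSCA and 8.01 CPM in control, with CD3E at 0 in both. The part of any of these markers in the results was not tested.

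Promoter sequences are shown for 3 members that were more abundant in the lncPSCA library and for SERINC3, whose level differed little, so that their matches to the interferon-responsive element can be compared. RefSeq promoters (build GRCh38.p14) were matched for 6 of the 8 members, and IFITM2, which was also more abundant in the lncPSCA library, and IFITM10 are not among them. The windows printed are the 250 bases before the transcription start, at chr11:313790-314039 on the plus strand for IFITM1, and on the minus strand at chr11:320861-321110 for IFITM3, chr19:17405631-17405880 for BST2 and chr20:44522071-44522320 for SERINC3. Capitals mark matches to GAAANNGAAA, the core of the interferon-stimulated response element (ISRE), searched on both strands.
IFITM1: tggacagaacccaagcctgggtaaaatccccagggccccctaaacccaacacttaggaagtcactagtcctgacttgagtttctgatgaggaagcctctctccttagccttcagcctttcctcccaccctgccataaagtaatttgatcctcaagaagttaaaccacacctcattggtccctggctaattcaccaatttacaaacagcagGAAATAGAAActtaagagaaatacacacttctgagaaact
IFITM3: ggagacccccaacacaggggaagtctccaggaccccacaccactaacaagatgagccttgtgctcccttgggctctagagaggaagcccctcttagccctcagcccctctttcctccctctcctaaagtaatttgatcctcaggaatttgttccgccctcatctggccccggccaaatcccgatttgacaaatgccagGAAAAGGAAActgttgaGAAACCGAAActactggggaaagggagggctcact
BST2: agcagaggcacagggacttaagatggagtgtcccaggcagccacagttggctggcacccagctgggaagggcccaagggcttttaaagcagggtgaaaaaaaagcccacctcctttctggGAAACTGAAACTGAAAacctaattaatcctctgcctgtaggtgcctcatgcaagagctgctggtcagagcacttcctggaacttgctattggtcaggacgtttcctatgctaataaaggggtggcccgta
SERINC3: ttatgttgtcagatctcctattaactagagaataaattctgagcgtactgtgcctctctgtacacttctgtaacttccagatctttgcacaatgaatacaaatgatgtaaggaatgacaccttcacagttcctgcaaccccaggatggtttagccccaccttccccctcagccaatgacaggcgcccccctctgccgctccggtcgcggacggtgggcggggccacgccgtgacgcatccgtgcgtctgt

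The IFITM1 promoter held the core GAAATAGAAA from 40 to 31 bases before the start, and a second core, GAAACTGAAA, that began 6 bases before the start and ran 4 bases past it, so that it is not complete in the printed window. In IFITM3 the cores GAAAAGGAAA, 52 to 43 bases before the start, and GAAACCGAAA, 35 to 26 bases before it, followed each other closely. The BST2 promoter held the core GAAACTGAAA at 130 to 121 and again at 124 to 115 bases before the start, and these 2 matches overlap each other. All of these lay on the strand of the gene. Over the 300 bases searched, from 250 before to 50 after the start, no match was found for CH25H, SERINC3 or SERINC5. Of 35116 RefSeq promoters of the same length, 3.57% held the core and 0.259% held more than 1. In the related lists described below, genes that differed less than 2-fold also held it: NCOA7 (1.57-fold), SHISA5 (1.84-fold) and ABHD16A (1.53-fold). In the list of other membrane and entry genes 5 of 11 promoters held the core, those of NCOA7, SHISA5, IFI6, PLSCR1 and RSAD2. In the interferon signal list 2 of 11 did, those of IFNL1 and SOCS1. A match to TTCNNNGAA, the gamma-activated site, was present once in IFITM1 and at 2 places in BST2, of which that at 136 to 128 bases before the start overlaps the first ISRE core. It was present in 7.66% of all promoters. A match in letters is no measure of binding, and its absence from this window is not informative about the factor.

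Of the 8 members, 6 reached a mean of 1 CPM over the 2 libraries. Genes were called higher or lower in the lncPSCA library when they averaged 1 CPM or more, differed at least 2-fold on counts plus a pseudocount of 1, and had a counting interval of the fold wholly beyond 1.5-fold (the size rule). IFITM1, IFITM2, IFITM3 and BST2 were higher and no member was lower, while SERINC3 and SERINC5 were called neither way. Over all 15440 measured genes the rule called 3.02% higher and 0.596% lower. The median log2 ratio (lncPSCA over control) of the 6 measured members was 1.88, against -0.02 over all measured genes. Together the 8 members took 0.292% of all counts in the lncPSCA library and 0.0421% in the control library. In bulk samples a change in the number of responding cells and a change in RNA per cell cannot be told apart. The plot of levels and folds shows the 4 higher members apart from the others.

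**Figure D1:**
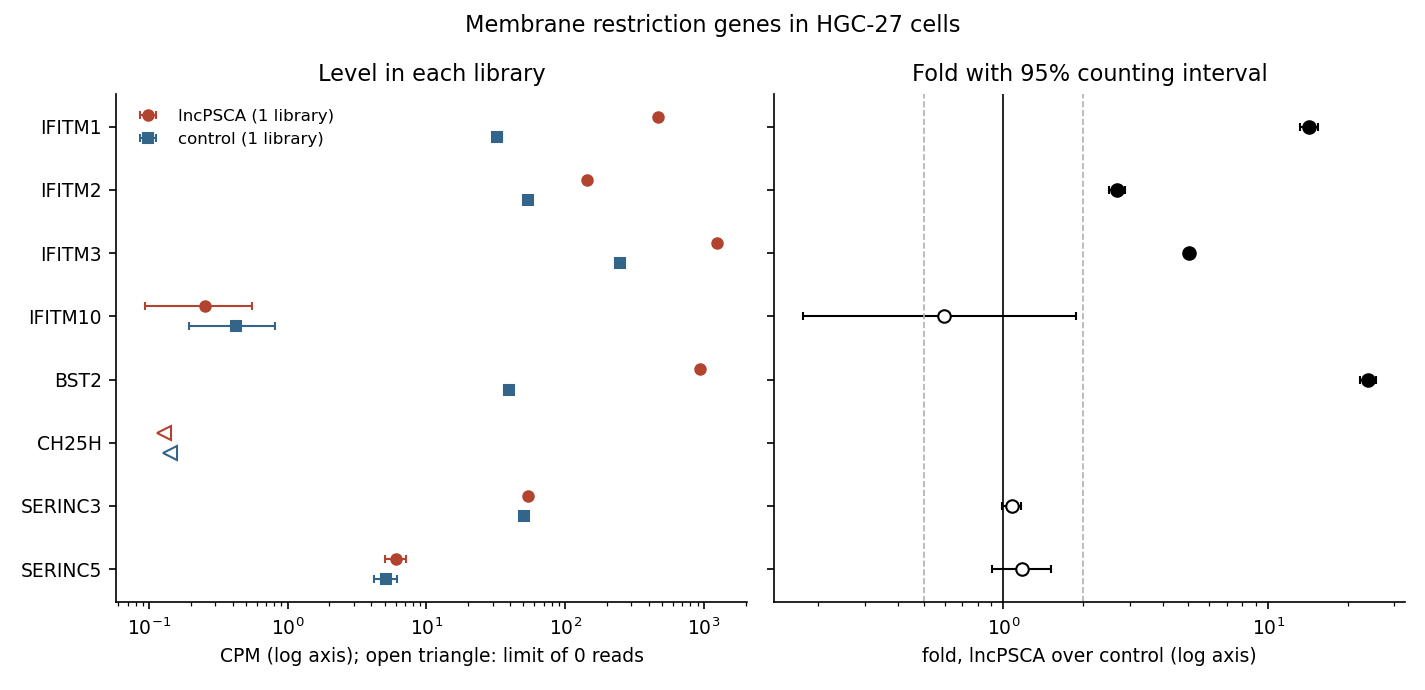
Left, level of each member in CPM (log axis) in the lncPSCA and control libraries, with 95% counting intervals; open triangles mark CH25H, which had 0 reads, at the limit of 3 counts. Right, fold of lncPSCA over control with its 95% counting interval; filled points met the size rule and dashed lines mark 2-fold. BST2 lay at 23.8-fold and IFITM1 at 14.3-fold, while SERINC3 and SERINC5 lay close to 1.

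BST2 (ENSG00000130303), the virion tether, had 21898 reads or 931 CPM in the lncPSCA library, against 825 reads or 39.1 CPM in the control library. This was a 23.8-fold difference (22.2 to 25.6), the largest of the members and the 31st largest ratio of the measured genes. By abundance BST2 ranked 103rd of the measured genes in the lncPSCA library and 5395th in the control library. None of the 50-base windows of its transcript occurred in a transcript of another gene.

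IFITM3 (ENSG00000142089), the endosomal member best known for restricting influenza virus, was the most abundant member in both libraries. It had 29454 reads or 1253 CPM in lncPSCA and 5258 reads or 249 CPM in control. The fold was 5.03 (4.88 to 5.18), smaller than that of BST2, but the gain of 1004 CPM was the 7th largest of all measured genes. BST2, with a gain of 892 CPM, was 10th.

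IFITM1 (ENSG00000185885), the family member at the cell surface, had 10919 reads or 464 CPM in lncPSCA and 685 reads or 32.5 CPM in control. It was 14.3-fold higher (13.2 to 15.5), with the 49th largest ratio. IFITM2 (ENSG00000185201) had 3406 reads or 145 CPM in lncPSCA and 1136 reads or 53.8 CPM in control. At 2.69-fold (2.52 to 2.88) it was the smallest of the 4, and 1.61% of measured genes had a larger ratio.

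The 4 higher members thus differed among themselves by more than counting error. A ratio of 2 folds does not depend on the scaling of the libraries. The fold of IFITM1 was 5.32 times that of its neighbour IFITM2 (4.799 to 5.89) and 2.85 times that of IFITM3 (2.62 to 3.09). For IFITM3 over IFITM2 it was 1.87 (1.74 to 2.01). The fold of BST2 was 1.67 times that of IFITM1 (1.501 to 1.85) and 4.74 times that of IFITM3 (4.39 to 5.11). All of these intervals lie above 1, but they leave out how reads shared between the IFITM genes were counted. Among all measured genes, the higher members stand above the band around 0 that holds most genes, at moderate to high expression.

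**Figure D2:**
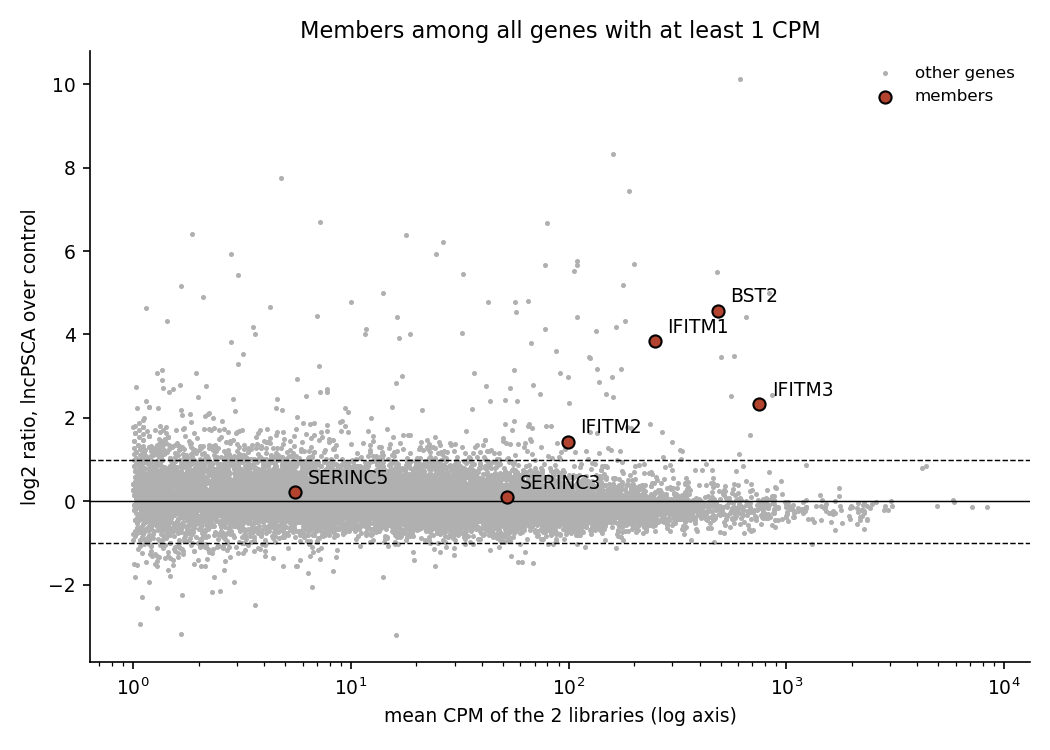
Log2 ratio of lncPSCA over control against mean CPM of the 2 libraries (log axis) for the 15440 genes with at least 1 CPM; dashed lines mark 2-fold. The members (red) IFITM2, IFITM3, IFITM1 and BST2 have log2 ratios of 1.43, 2.33, 3.84 and 4.57, and SERINC3 and SERINC5 lie within the band of most genes at 0.10 and 0.23.

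The reads of the 3 IFITM genes that lie side by side on chromosome 11 were split differently in the 2 libraries. IFITM1 took 24.9% of them in lncPSCA (exact binomial interval 24.5% to 25.3%) and 9.68% in control (8.997% to 10.4%). The share of IFITM2 was 7.78% in lncPSCA (7.53% to 8.03%) and 16.05% in control (15.2% to 16.9%). IFITM3 held the largest share in both, at 67.3% in lncPSCA (66.8% to 67.7%) and 74.3% in control (73.2% to 75.3%). Summed, the 3 genes had 43779 reads in lncPSCA and 7079 in control, a 5.55-fold difference (5.41 to 5.69).

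**Figure D3:**
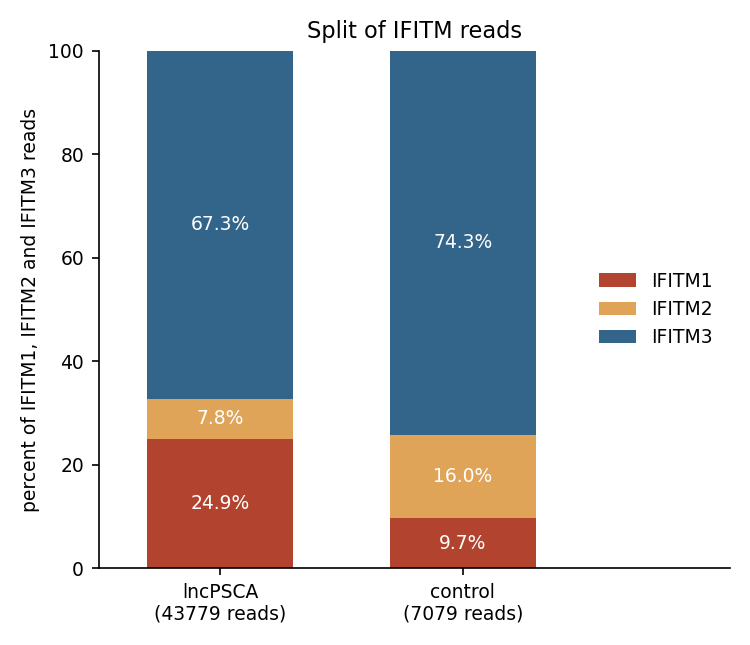
Percent of the summed IFITM1, IFITM2 and IFITM3 reads that each gene took in the lncPSCA library and the control library. IFITM1 took 24.9% in lncPSCA and 9.68% in control, and IFITM2 7.78% and 16.05%.

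The 3 genes are close paralogs, and how multiply mapped reads were counted is not given in the sources used here. In GENCODE release 29 transcripts, 42.3% of the 50-base windows of IFITM1, 15.8% of those of IFITM2 and 20.3% of those of IFITM3 also occur in a transcript of another gene, and IFITM2 and IFITM1 are annotated as overlapping on 1 strand. The split between them and the ratios of their folds are therefore uncertain. Whether the summed fold would move if shared reads had been left out was not tested. Of 12 IFITM pseudogenes in the table none had more than 3 reads in either library.

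Levels of different genes were compared per kilobase of the longest principal transcript in GENCODE release 29. In the lncPSCA library the order was IFITM3 with 1551 CPM per kb, BST2 with 914, IFITM1 with 543, IFITM2 with 162, SERINC3 with 12.2 and SERINC5 with 0.926. In the control library IFITM3 led with 308 CPM per kb, followed by IFITM2 with 60.4, BST2 with 38.4, IFITM1 with 38.0, SERINC3 with 11.3 and SERINC5 with 0.790. BST2 and IFITM1 did not differ beyond counting error in control (35.8 to 41.1 and 35.2 to 40.9), whereas in lncPSCA BST2 stood above IFITM1 (902 to 926 and 533 to 553). IFITM2 stood above both in control and below both in lncPSCA. With the shortest principal transcript, the level of SERINC3 was 31.3 CPM per kb in lncPSCA and 29.2 in control, and its place in the order did not change. IFITM1 was then at 44.5 CPM per kb in control, above BST2.

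SERINC3 (ENSG00000132824) had 1272 reads or 54.1 CPM in lncPSCA and 1062 reads or 50.3 CPM in control. The fold was 1.07 (0.990 to 1.17), so no difference was detectable at this depth, and one of more than 1.17-fold lies outside the counting interval. SERINC5 (ENSG00000164300), the family member with the stronger effect on HIV, had 141 reads or 5.997 CPM in lncPSCA and 108 reads or 5.12 CPM in control, a fold of 1.17 (0.905 to 1.52). Both genes had log2 ratios in the middle of all measured genes, with 38.4% of genes above SERINC3 and 28.5% above SERINC5. Of the 3 other SERINC genes, SERINC1 had 1502 reads in lncPSCA and 1199 in control, a fold of 1.12 (1.04 to 1.21). SERINC4 had 79 and 81 reads, a fold of 0.875 (0.634 to 1.21), and SERINC2 was under 1 CPM. Neither met the rule. The fold of SERINC3 was 0.956 times that of SERINC1 (0.855 to 1.07).

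CH25H (ENSG00000138135), the oxysterol enzyme, had no reads in either library. A count of 0 allows up to 0.128 CPM in lncPSCA and 0.142 CPM in control, taking 3 counts as the limit. IFITM10 (ENSG00000244242) had 6 reads in lncPSCA and 9 in control, a fold of 0.598 with an interval of 0.175 to 1.88. It was under 1 CPM in both libraries, and 27.8% of its 50-base windows are shared with an overlapping gene model, so its reads do not resolve a direction.

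Genes next to the IFITM cluster, BST2 and CH25H in RefSeq gene order were looked at, the 5 nearest on either side. Around the IFITM cluster 4 neighbours were measured. NLRP6, which encodes an inflammasome sensor, had 62 reads in lncPSCA and 22 in control and was higher at 2.53-fold (1.53 to 4.32), a call lost when ratios were centred along mean expression, at 2.27-fold (1.38 to 3.88), and at a minimum of 5 CPM, which it did not reach. The others met the rule in neither direction: PGGHG at 1.74-fold (1.502 to 2.02), B4GALNT4 at 1.68-fold (1.52 to 1.86) and SIGIRR at 1.59-fold (1.48 to 1.71). PGGHG, B4GALNT4 and SIGIRR were each higher at a limit of 1.5-fold with an interval beyond 1. That setting called 1624 of all 15440 measured genes higher. All 4 measured neighbours had log2 ratios above 0, with a median of 0.77. IFITM5, the bone-specific family member that lies beside IFITM2, had 3 reads in lncPSCA and 2 in control.

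Beside BST2, 3 neighbours were measured and none met the rule. MVB12A, which encodes a subunit of the ESCRT-I budding machinery, was at 1.30-fold (1.23 to 1.37), ANO8 at 1.27-fold (1.14 to 1.41) and GTPBP3 at 0.931-fold (0.872 to 0.995). Between BST2 and MVB12A lies BISPR, a non-coding gene that was not matched to the count table. CCDC194, the nearest gene on the other side of BST2, had 24 reads in lncPSCA and 0 in control. Taking 3 counts for control gave a ratio of 7.18, and the lower counting bound of the fold was 5.402. The mean of CCDC194 was under 1 CPM. CH25H, without reads, is followed in gene order by LIPA, at 1.03-fold (0.971 to 1.09), and then by interferon-induced IFIT genes. IFIT2 had 2967 reads in lncPSCA and 95 in control and was 28.0-fold higher (22.8 to 34.8), and IFIT3, with 8126 reads in lncPSCA and 200 in control, was 36.5-fold higher (31.7 to 42.2).

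**Figure D4:**
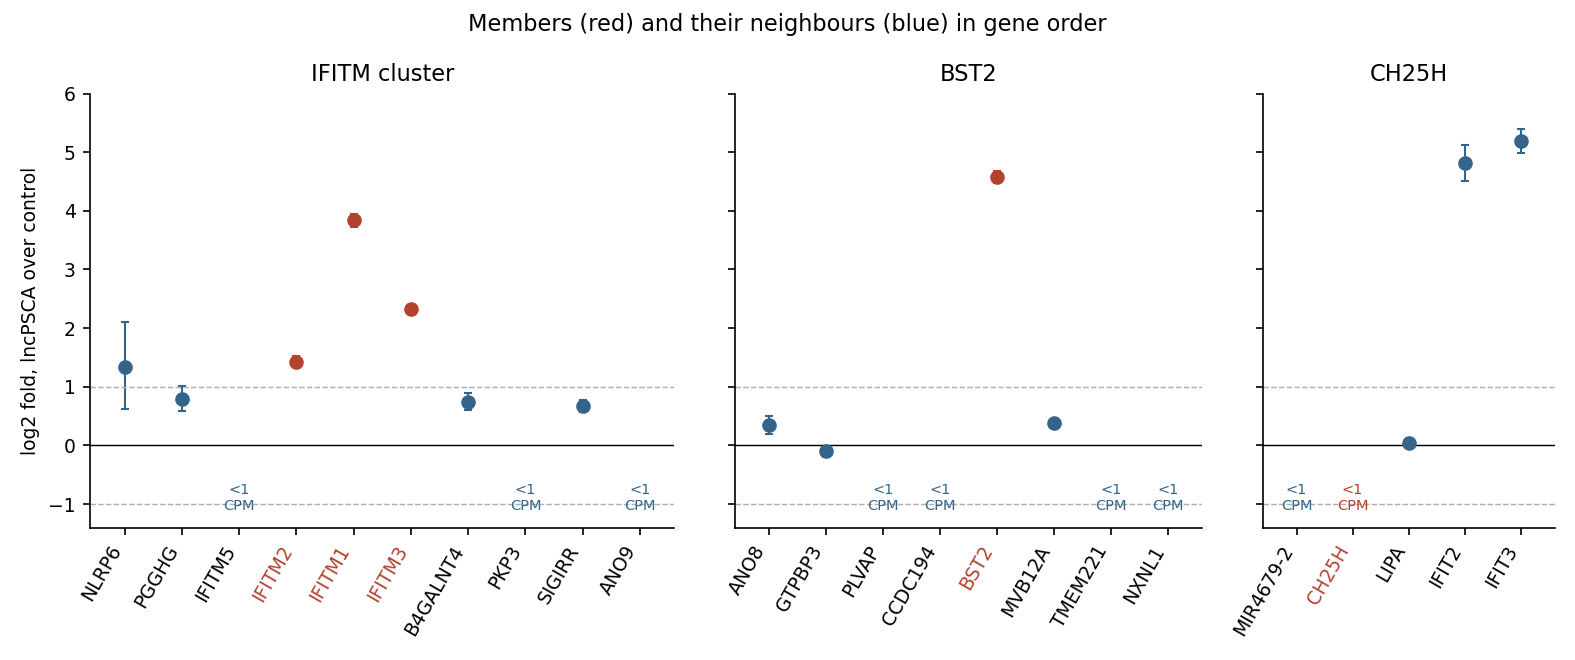
Log2 fold of lncPSCA over control with 95% counting intervals for members (red) and neighbours (blue) in gene order, with dashed lines at 2-fold; genes under 1 CPM are marked as such and neighbours not matched to the table are left out. BST2, at 23.8-fold, stands above its 3 measured neighbours, whereas CH25H, under 1 CPM, lies near IFIT2 and IFIT3, at 28.0-fold and 36.5-fold.

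The machinery that carries the interferon signal to these promoters was followed through a list of 16 genes, all measured. Of these, 8 were higher and none lower, and the other 8 were called neither way, with a median log2 ratio of 1.20. At a minimum of 5 CPM, which 11 of the list reached, 4 were higher and the median was 0.17, since IFNB1, IFNL1, SOCS1 and IRF9 lie under that minimum. STAT2, a subunit of the complex that binds the ISRE, had 6616 reads in lncPSCA and 749 in control and was 7.93-fold higher (7.35 to 8.56), and IRF9, its DNA-binding subunit, with 98 reads in lncPSCA and 27 in control, was 3.26-fold higher (2.11 to 5.19). The cytokine genes IFNB1 and IFNL1 had 132 and 96 reads in lncPSCA against 1 and 2 in control, ratios of 118 (20.9 to 4714) and 43.1 (11.6 to 361). IRF1, a transcription factor that binds the same element, was 2.79-fold higher (2.51 to 3.11). The feedback inhibitors USP18 and SOCS1 were 10.8-fold (9.79 to 11.9) and 4.81-fold (3.31 to 7.21) higher. The receptor genes did not meet the rule. For type I interferon, IFNAR1 was at 1.01-fold (0.902 to 1.14) and IFNAR2 at 0.738-fold (0.603 to 0.903). IFNLR1, a receptor subunit for the IFNL1 product, had 296 reads in lncPSCA and 139 in control, at 1.91-fold (1.56 to 2.36), and was higher at a limit of 1.5-fold. Its partner IL10RB was at 0.749-fold (0.628 to 0.893).

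Other genes linked to viruses at membranes or during entry, not all of them known to act against viruses, were higher in part. Of 16 listed genes 11 were measured, of which 7 were higher and none lower, and the other 4 were called neither way, with a median log2 ratio of 1.62. MX2, a GTPase that blocks HIV nuclear entry, was 337-fold higher (218 to 551), and RSAD2, encoding viperin, 104-fold (73.9 to 153). IFI6, an endoplasmic reticulum protein that hinders flavivirus replication, was 21.5-fold higher (20.3 to 22.8). PLSCR1, a phospholipid scramblase that restricts coronavirus entry, had 4152 reads in lncPSCA and 471 in control and was 7.91-fold higher (7.19 to 8.72). TLDC2 was 4.797-fold higher (3.92 to 5.92). GBP2, an interferon-induced GTPase, with 40 reads in lncPSCA and 11 in control, was 3.26-fold higher (1.64 to 7.05). LY6E, a surface protein that limits coronavirus fusion, was 2.01-fold higher (1.94 to 2.08) but with upper-quartile factors it missed the rule, at 1.98-fold. GBP2 fell short when ratios were centred along mean expression, at 2.92-fold with a lower bound of 1.47, while SHISA5 met the rule under the same centring, at 2.04-fold (1.95 to 2.13), so that 7 genes were again higher. With no CPM minimum, 15 of the list entered and the median was 1.04.

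The 25-hydroxycholesterol and LXR list follows the product of CH25H: the enzymes that make or remove oxysterols, the proteins that sense them and the targets of the oxysterol receptor LXR. Of 18 genes 15 were measured, with 2 higher, none lower, 13 in neither direction and a median log2 ratio of 0.21. The higher genes were both cholesterol exporters and classical LXR targets. ABCA1 had 4489 reads in lncPSCA and 1266 in control and was 3.18-fold higher (2.99 to 3.39). ABCG1, with 2148 reads in lncPSCA and 735 in control, was 2.62-fold higher (2.41 to 2.86). The receptor genes NR1H2 and NR1H3 were at 0.973-fold (0.885 to 1.07) and 1.12-fold (0.995 to 1.27). MYLIP, another LXR target, was at 1.23-fold (1.13 to 1.35).

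Relatives and partners of the members showed no gene that met the rule. This held for the 4 measured of 9 IFITM and dispanin relatives (median log2 ratio 0.12), the most abundant being SYNDIG1 with 14.3 CPM in lncPSCA and 18.3 CPM in control and PRRT1 with 11.8 and 10.3 CPM. It held for the 10 measured genes of IFITM modifiers and partners (median -0.07), the most abundant being the surface protein BSG with 1009 CPM in lncPSCA and 1019 CPM in control and the ATPase VCP with 533 and 703 CPM. It also held for the 7 measured of 10 tetherin partners (median -0.09), the most abundant being the endosomal sorting proteins HGS with 183 CPM in lncPSCA and 165 CPM in control and TSG101 with 54.3 and 68.1 CPM. The modifier ZMPSTE24, a metalloprotease that cooperates with IFITM proteins, was at 0.637-fold (0.599 to 0.676). In the other direction, the kinase FYN was at 1.88-fold (1.595 to 2.21) and the ubiquitin ligase NEDD4 at 1.52-fold (1.302 to 1.78). The plot of the lists sets these ratios beside those of the members.

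**Figure D5:**
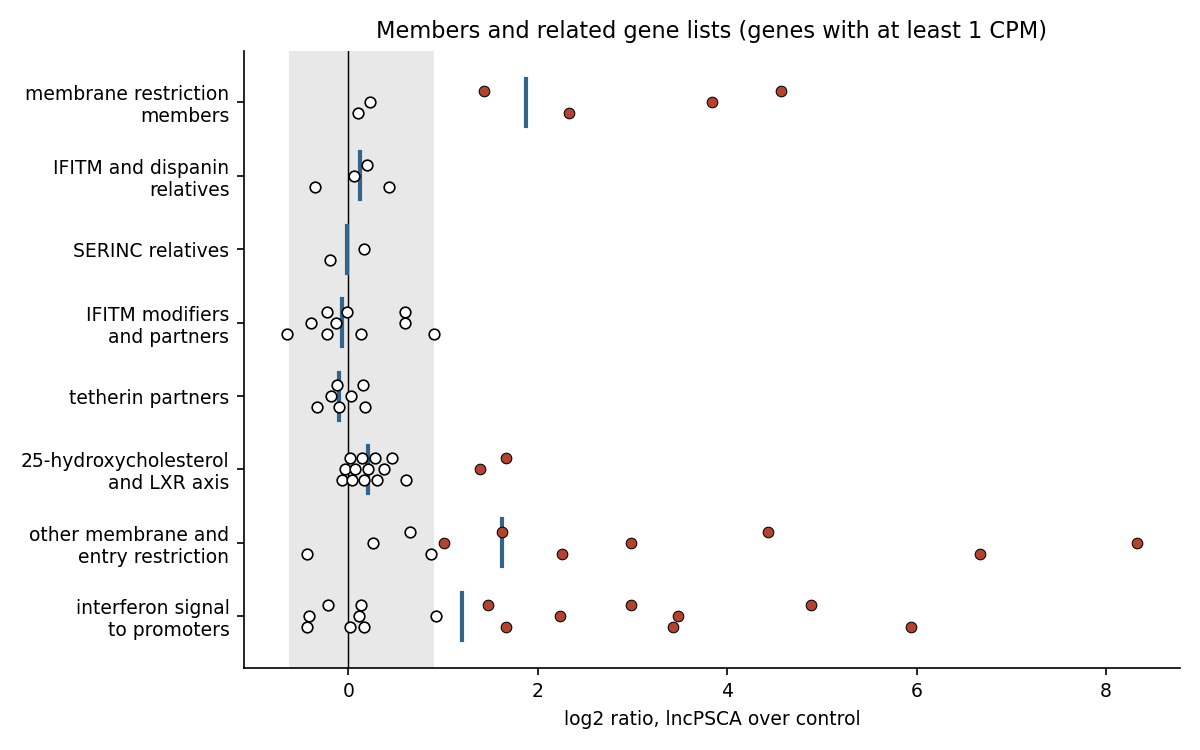
Log2 ratio of lncPSCA over control for measured genes of the members and of 7 related lists; red points met the size rule, open points did not, blue bars mark list medians and the grey band holds the middle 90% of all measured genes. The members have a median of 1.88, the interferon signal list 1.20 (0.17 at a minimum of 5 CPM) and the tetherin partners -0.09.

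The measured genes outside these lists whose log2 ratio lay nearest to that of each higher member were also looked up, among genes that carry a symbol and average 5 CPM or more. Likeness here is a single ratio over 2 libraries. For BST2 they were DDX60L, a helicase-like gene, at 23.6-fold (19.3 to 29.2) and SAMD9L at 23.5-fold (13.3 to 45.9). The genes nearest to IFITM1 were PARP9 at 14.0-fold (12.1 to 16.3) and SAMD9 at 15.3-fold (11.3 to 21.4). PML, the organiser of PML nuclear bodies, at 5.17-fold (4.77 to 5.61) and the immunoproteasome subunit PSMB9 at 5.33-fold (4.78 to 5.95) lay nearest to IFITM3. AKAP9, a centrosomal and Golgi scaffold, at 2.71-fold (2.13 to 3.48) and NHS at 2.72-fold (2.06 to 3.63) lay nearest to IFITM2.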

How the data were processed

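The authors deposited 1 table of raw read counts per Ensembl gene, with 1 column per library. The submitters' processing notes name TopHat2, HTSeq and build hg19. Not given in the sources used here are the annotation release, strand setting, read length and treatment of multiply mapped reads. Symbols were assigned from a table that matched 81.9% of identifiers. Library sizes were scaled by TMM (edgeR 4.0.16; factors 1.02 for lncPSCA and 0.979 for control), and CPM and ratios of lncPSCA over control were computed from them with SciPy 1.17.1. Folds are CPM ratios without a pseudocount, with exact Clopper-Pearson counting intervals; levels carry exact Poisson intervals. Ratios of 2 folds carry odds ratio intervals. All cover counting error only, and since no molecular identifiers mark the reads, which may be copies, intervals can be too narrow.

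With 1 library per group there is no test and no p-value. The size rule was run over the whole table. It was also tried on simulated counts that hold counting error only, which cannot show how it fares with spread between cultures. Named were all 8 members, every gene of 7 lists that met the rule or else the 2 most abundant, the neighbours, and the 2 nearest genes by ratio; receptors and other list genes named beyond this (among them IFNAR1, IFNAR2, IFNLR1, IL10RB, NR1H2, NR1H3, MYLIP, SHISA5, ZMPSTE24, FYN and NEDD4) and neighbours beyond the adjacent ones were chosen after their values were seen. Some list genes are counted but not reported here by name. Members and lists were chosen with earlier results of these data known. RefSeq and GENCODE release 29 (GRCh38) differ in build from the authors' hg19 and were used for sequences, lengths and gene order only. Tried as alternatives were total counts, upper-quartile factors, size factors from DESeq2 1.42.0, other CPM minimums, pseudocounts and fold limits, 2 centrings, and summed IFITM reads.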

Additional observations from a re-analysis of the deposited data

How the results depend on the processing

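Under every alternative run on single genes, IFITM1, IFITM2, IFITM3 and BST2 were higher and no member was lower, except that at a limit of 4-fold 3 members were higher (IFITM2 was not) and that with the IFITM1, IFITM2 and IFITM3 reads summed to 1 feature there were 2 higher features. The median log2 ratio of the measured members, 1.88, was 1.43 with no CPM minimum, which adds IFITM10, 2.02 when centred along mean expression, 2.003 when centred along transcript length and 1.35 with IFITM reads summed. Over scalings, pseudocounts and centrings the log2 ratio ran from 4.55 to 4.72 for BST2, 3.81 to 3.98 for IFITM1, 2.30 to 2.48 for IFITM3, 1.40 to 1.55 for IFITM2, 0.08 to 0.19 for SERINC3 and 0.09 to 0.29 for SERINC5. The 467 higher and 92 lower of 15440 genes became 284 and 46 of 11927 at a minimum of 5 CPM. With no minimum they were 612 and 150 of 27941. Over the same 15440 genes, they were 122 and 10 at 4-fold. They were 1624 and 835 at a limit of 1.5-fold with an interval beyond 1. At that 1.5-fold limit ZMPSTE24 was lower and FYN and NEDD4, other IFITM modifiers, were higher. No paired analysis was possible because each group has 1 library, and leaving out a library leaves no comparison. The spread between cultures was not measured, and the depth limits IFITM10, CH25H and SERINC5.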

Other observations

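Several non-coding gene models overlap the IFITM genes in GENCODE release 29, and whether counting used strand is not given. The antisense model AC136475.2, within IFITM2, had 43 reads in lncPSCA and 22 in control, and AC136475.1, antisense to IFITM3, had 29 and 13. AC136475.8 and AC136475.7, on the strand of IFITM3, had 3 and 4 reads in lncPSCA and none in control. These totals are small beside the 29454 and 5258 reads of IFITM3. PLVAP, which lies beyond CCDC194 in gene order from BST2, had 8 reads in lncPSCA and 0 in control. These values were chosen after they were seen.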
